A study of Mus musculus with 12 samples.

Results

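Asynchronously growing cells of a mouse B cell lymphoma line in which serine 38 of the ribosomal protein RPL12 was replaced by aspartate (S38D) were compared with asynchronous cells in which it was replaced by alanine (S38A). The comparison rests on 4 of the series' 12 ribosome profiling libraries, 2 for each mutant, chosen by their labelled genotype and state. The other 8 libraries are 2 of asynchronous wild-type (WT) cells and 2 each of S38D, S38A and WT cells labelled mitotic. Only the mitotic libraries have nocodazole in their titles. The treatment text, which all 12 libraries carry alike, gives it as 100 ng/mL for 8 hr, then 10 min in fresh medium, and has cycloheximide at harvest. All cells share the same origin. The line, 19PP, arose in a Rag2-/-γC-/- mouse that had received bone marrow from a Cγ1-Cre; Myc/P110*flSTOP donor, and GFP and hCD2 reporter genes were later removed with Flp in a subline called 19DN. The Cγ1-Cre allele acts mainly in germinal centre B cells. The labels do not say how the substitutions were introduced, how many clones stand for a genotype, or whether a group's 2 libraries come from cultures grown apart. A difference is therefore one between the cells labelled with each genotype, and each p-value reflects only library-to-library spread, possibly technical.

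RPL12, also called uL11, sits at the base of the stalk of the large ribosomal subunit, where translation factors that hydrolyse GTP dock. Alanine cannot be phosphorylated, and the negative charge of aspartate resembles that of a phosphorylated serine, so the mutant pair is commonly used to set an unphosphorylated site against a mimic of a phosphorylated one. Ribosome profiling sequences mRNA stretches that ribosomes shield from nuclease. Footprints of a gene can change through its mRNA or through how often that mRNA is translated, and no mRNA measurement was analysed here to separate them.

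The S38D libraries held 505500 and 465584 reads in coding sequence, and the S38A libraries 397435 and 323093. Of these, 20.6 and 20.2% fell on the 100 most abundant genes in S38D libraries and 19.3 and 19.6% in S38A libraries. Alignments to more than 1 place, as a share of these and of uniquely placed reads together, made up 65.3 and 66.9% in S38D, 62.3 and 62.8% in S38A and 68.3 and 66.3% in WT asynchronous libraries. Depth and this share both moved with the genotype, and their part in the results below was not tested. The 2 libraries of each mutant correlated at 0.955 in S38D and 0.959 in S38A across 4259 well-covered genes, which are not independent replicates. Set against counting error alone, the spread between a group's 2 libraries was 1.77 in S38D and 1.25 in S38A (chi-square per degree of freedom). The S38D value was the largest of the 6 groups. The files give Ensembl gene IDs without names, and the gene table used here matched 0 of them. RPL12 itself, B cell markers and markers of other cell types could therefore not be located, the labelled cell type was not checked, and genes are given by ID with no role.

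The 2 mutants differed in many genes. More were lower than higher in S38D as fitted here, an excess that turned round without a filter or with DESeq2. Of 6692 genes tested, 583 passed an adjusted p of 0.05 (edgeR quasi-likelihood test), which is 8.71%. S38D cells had 248 of these higher (3.71% of genes tested) and 335 lower (5.01%). The median log2 difference of all genes tested was -0.00103. Libraries were scaled to one another (TMM) before the test. The count in each direction is therefore relative and does not measure total footprints per cell. Differences were mostly moderate, with a median size of 0.80 on the log2 scale among higher genes and 0.86 among lower ones. At least 2-fold differences were found in 70 higher and 112 lower genes, together 2.72% of those tested, and at least 4-fold ones in 14 higher and 10 lower genes. CPM is reads per 1e+06 reads in tested genes, with each library's total adjusted by its TMM factor. The libraries of the 2 mutants did not overlap in CPM in 247 of the higher and 334 of the lower genes. That was also so for 48.6% of all genes tested, which makes it a weak criterion with 2 libraries a group. No permutation of 2 against 2 libraries can give an exact p under 0.333, so every call rests on a modelled spread, here shared over the 12 libraries. With the 4 compared libraries alone in the fit, 390 genes were called, 387 of them among the 583.

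**Figure D1:**
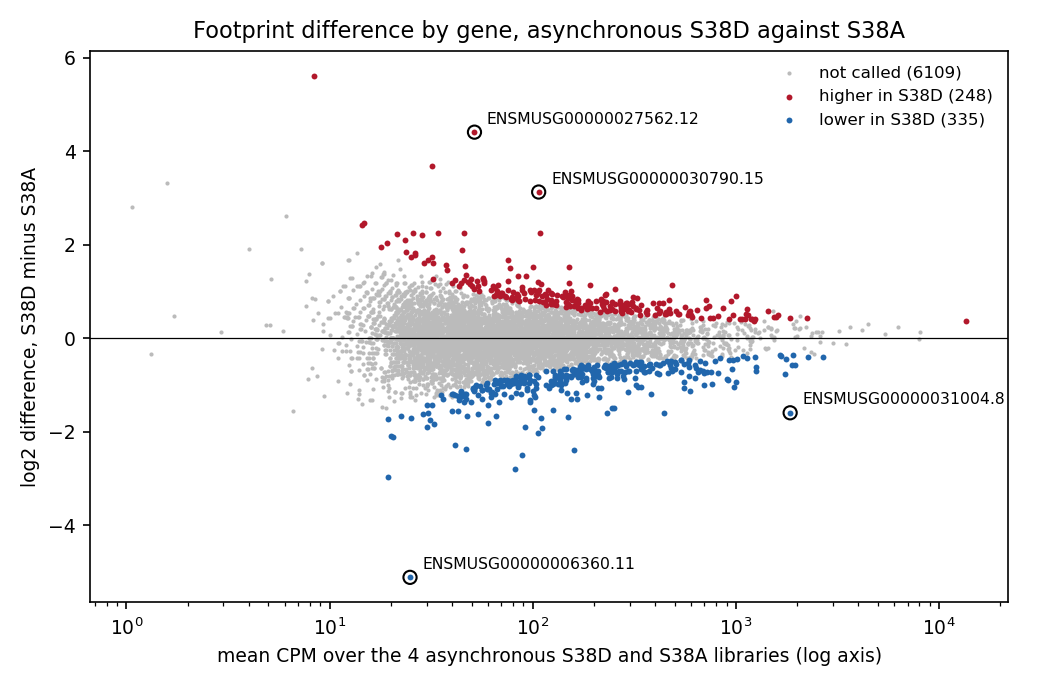
Each point is 1 of the 6692 genes tested, with its mean CPM over the 4 libraries (log axis) against the log2 difference, S38D minus S38A. Red points are the 248 genes called higher in S38D and blue points the 335 called lower; circles mark the 4 genes given by ID.

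Calls were unevenly spread over expression levels. Among the 710 genes with a mean of at least 300 CPM, 67 were higher and 90 lower in S38D, 22.1% of them. Among the 1783 genes from 100 to below 300 CPM, 101 were higher and 131 lower (13.0%). Between 30 and 100 CPM 66 of 3102 genes were higher and 106 lower (5.54%), and below 30 CPM 14 of 1097 were higher and 8 lower (2.01%). The smallest called difference was 0.37 on the log2 scale in the top class and 1.61 in the bottom class. A moderate difference in a gene under 30 CPM was thus not detectable at this depth. Lower genes outnumbered higher ones in each class above 30 CPM and not below it.

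A pair of genes stands for those higher in S38D, the one with the largest difference and the one with the smallest adjusted p under the naming rule. ENSMUSG00000027562.12 had 98.5 and 99.7 CPM in S38D libraries, against 5.22 and 3.23 CPM in S38A libraries. WT asynchronous libraries had 97.7 and 59.7 CPM of it. Both S38D libraries thus lay far above both S38A libraries, and slightly above the higher of the WT libraries. The S38A level rests on 3 reads against 93 in S38D, a ratio with a 95% counting interval of 7.63 to 113.6 (exact binomial, counting error only). The fitted log2 difference was 4.41 ± 0.50 (SE, adjusted p = 9.48e-10, edgeR).

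ENSMUSG00000030790.15 had 183 and 202 CPM in S38D libraries and 20.9 and 22.6 CPM in S38A libraries, with 227 and 219 CPM in WT asynchronous libraries. It was low in S38A alone, and S38D stayed below both WT libraries. The log2 difference between the mutants was 3.13 ± 0.30 (SE, adjusted p = 3.64e-12, edgeR), or 8.73-fold. It rests on 89 and 91 reads in S38D and 8 and 7 reads in S38A.

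The same rule gave 2 genes for the opposite direction. ENSMUSG00000006360.11 had 2.05 and 0 CPM in S38D libraries, 52.2 and 45.3 CPM in S38A libraries and 19.5 and 9.95 CPM in WT asynchronous libraries. Here S38D was lowest, S38A highest and WT between them, with no overlap. The fitted log2 difference of -5.12 ± 0.83 (SE, adjusted p = 8.30e-06, edgeR) rests on 1 read in S38D against 34 in S38A. Of the 12 libraries, only S38A ones held at least 10 reads of this gene. It thus passed the filter on low counts only through the genotype where it is high. By counting alone S38A was 45.8 times S38D, with a 95% interval of 7.69 to 1862 (exact binomial). Leaving out S38D replicate 1 gave a fitted log2 difference of -7.05 for ENSMUSG00000006360.11, against 0 reads and so no bound, and leaving out S38D replicate 2 gave -4.33.

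ENSMUSG00000031004.8 had the smallest adjusted p of all genes. Its level was 1018 and 819.6 CPM in S38D libraries, against 3373 and 2184 CPM in S38A libraries and 328 and 428 CPM in WT asynchronous libraries. Every S38A library exceeded every S38D library, and S38D in turn exceeded WT, although the 2 S38A libraries differed from each other by more than the whole level in S38D. The difference of S38D from S38A was -1.60 ± 0.14 (SE, adjusted p = 1.12e-13, edgeR), 3.03-fold lower, on 496 and 370 reads in S38D and 1293 and 675 in S38A. Leaving out S38A replicate 1 gave -1.25 and leaving out S38A replicate 2 gave -1.85.

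**Figure D2:**
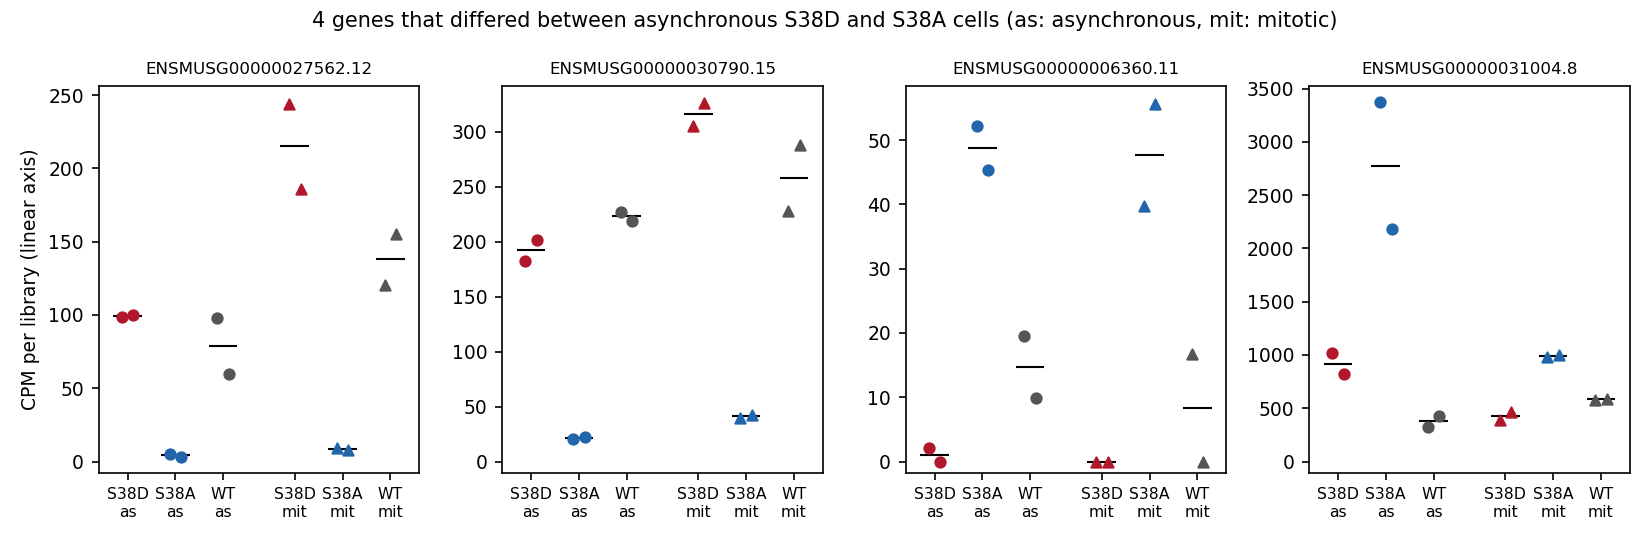
CPM of 4 genes in each of the 12 libraries (points, linear axes; circles asynchronous, triangles mitotic), with the mean of each group of 2 as a line. S38D and S38A asynchronous libraries do not overlap in any of the 4 panels, and among asynchronous libraries WT lies nearer to S38D in the 2 left panels, between the mutants in the third and below both in the fourth.

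The 12 genes with the largest positive differences under the rule ranged from 2.10 to 4.41 on the log2 scale, at mean levels of 14.5 to 108.9 CPM. The 12 with the largest negative differences ranged from -5.12 to -1.91, at 19.5 to 160.1 CPM. In mitotic libraries, 11 of the first 12 and 10 of the second 12 had the same direction, and 8 and 6 passed the test there in that direction. The background of calls in mitotic cells was 6.14% higher and 6.77% lower in S38D. Of the 5 genes with the smallest adjusted p in each direction, all 10 passed in the same direction in mitotic libraries.

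WT levels were set beside those of the mutants for the called genes, as a description. WT libraries enter the comparison only through the filter, the scaling and the shared estimate of the spread. Among the 335 genes lower in S38D, WT lay nearer to S38D than to S38A in 266 (79.4%) and beyond S38D in 141 of them. Among the 248 genes higher in S38D, WT was nearer to S38D in 158 (63.7%) and beyond it in 42. Over all 6692 genes tested, WT was nearer to S38D in 57.5% and beyond it in 2629. Lying beyond S38D was thus common among all genes and is not particular to the called ones. Taking the genes called in the same direction in both states and their mitotic levels, WT was nearer to S38D in 130 of 154 lower genes (84.4%) and 71 of 100 higher ones (71%), beside 58.5% of all genes tested.

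The called genes also took different shares of all footprints. The 335 lower genes held 7.46 and 7.11% of the tested coding reads in S38D libraries, 12.2 and 11.7% in S38A libraries and 7.46 and 8.10% in WT asynchronous libraries. The 248 higher genes held 10.0 and 10.2% in S38D, 6.46 and 6.83% in S38A and 9.17 and 8.83% in WT asynchronous libraries. These genes were chosen on the mutants' asynchronous values, so their sums there are a description. In mitotic libraries, which entered that choice only through the filter, the scaling and the shared spread, the lower genes held 4.78 and 4.78% in S38D and 7.92 and 7.97% in S38A, and the higher genes 13.2 and 13.3% in S38D and 10.4 and 10.3% in S38A. The order of the mutants was the same in both states for both sets.

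Gene by gene, the difference between the mutants recurred in mitotic cells, where neither library of either mutant is shared. Of the 583 called genes, 528 (90.6%) had the same direction in mitotic cells, beside 66.4% of all genes tested. This held for 223 of the 248 higher genes and 305 of the 335 lower ones. Of the 182 called genes with at least a 2-fold difference, 164 kept their direction. The median log2 difference of the higher genes was 0.80 in asynchronous and 0.47 in mitotic cells, and that of the lower genes was -0.86 in asynchronous and -0.68 in mitotic cells. Values in the libraries used for the choice tend to be the larger ones. In mitotic cells 40.3% of the higher and 46.0% of the lower genes passed in the same direction, while 0 and 2 passed in the opposite one.

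The 4 genes given by ID kept their direction in mitotic cells. ENSMUSG00000027562.12 had 244 and 186 CPM in S38D mitotic libraries, against 9.34 and 7.95 CPM in S38A mitotic ones. ENSMUSG00000030790.15 had 305 and 326 CPM in S38D mitotic libraries, against 39.7 and 42.4 CPM in S38A mitotic ones. Its WT mitotic libraries, at 228 and 288 CPM, lay below S38D, whereas in asynchronous cells WT lay above S38D. ENSMUSG00000006360.11 had 0 reads in both S38D mitotic libraries and 17 and 21 reads in S38A mitotic libraries, so that S38D was at least 8.76-fold lower when the group as a whole is set to the floor of 3 reads. The exact 95% counting interval of S38A over S38D starts lower, at 6.79. This gene passed the filter only through S38A libraries, mitotic ones among them, so its mitotic values are a description. ENSMUSG00000031004.8 had 389 and 463 CPM in S38D mitotic libraries, against 978 and 1001 CPM in S38A mitotic ones, a log2 difference of -1.21 ± 0.16 (SE, adjusted p = 5.88e-08, edgeR). In mitotic cells its WT libraries, at 577 and 591 CPM, lay above S38D, whereas in asynchronous cells they lay below it.

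**Figure D3:**
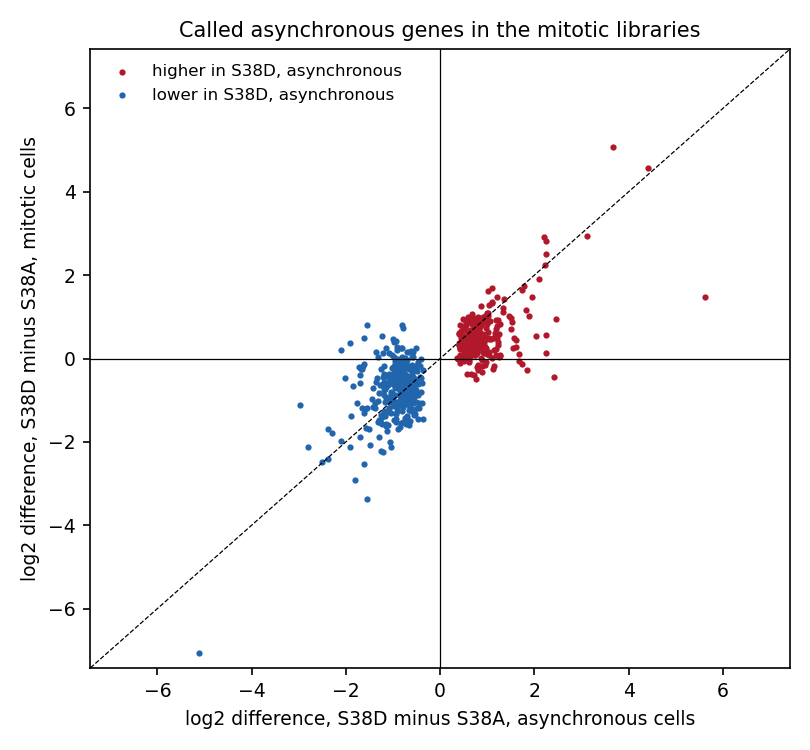
Each point is 1 of the 583 genes called in asynchronous cells, with the log2 difference, S38D minus S38A, in asynchronous cells (x axis) and in mitotic cells (y axis); the dashed line marks equal values. Of these genes, 528 lie below 0 on both axes or above 0 on both, and the 2 states share no library.

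Whether the difference between the mutants depended on state was tested directly, as the difference in mitotic cells minus that in asynchronous cells. Of 6692 genes, 16 passed (0.239%, edgeR quasi-likelihood test), 7 with a more positive and 9 with a more negative difference in mitotic cells, and 703 had an unadjusted p under 0.05. The interaction is built from the mutants' differences in the 2 states, so calls within a state partly follow from the choice of genes. In mitotic cells 14 of the 16 were called between the mutants, beside 12.9% of all genes tested. In asynchronous cells 8 of the 16 were called, beside 8.71% of all genes tested, and 6 were called in both states. Of those 6, 2 had opposite directions in the 2 states. The count depended on single libraries, with 4 genes without S38A mitotic replicate 1, 5 without S38D mitotic replicate 2, 7 without S38D mitotic replicate 1, 9 without S38A asynchronous replicate 2, 29 without S38D asynchronous replicate 2 and 32 without S38D asynchronous replicate 1.

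ENSMUSG00000026234.12 had the smallest adjusted p of the interaction. It had 809 and 866 CPM in S38D mitotic and 2307 and 2302 CPM in S38A mitotic libraries, and 1578 and 1294 CPM in S38D asynchronous and 1748 and 1970.1 CPM in S38A asynchronous libraries. S38D was below S38A in both states, with a log2 difference of -1.46 in mitotic cells and -0.37 in asynchronous cells (adjusted p = 0.04997 for the asynchronous one, edgeR). The difference between states was -1.09 ± 0.18 (SE, adjusted p = 0.000657, edgeR).

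ENSMUSG00000037815.6 had 3.82 and 14.0 CPM in S38D mitotic libraries, on 1 and 4 reads, and 74.7 and 90.1 CPM in S38A mitotic libraries. In asynchronous cells it had 71.8 and 68.7 CPM in S38D libraries, against 75.6 and 71.2 CPM in S38A ones. The libraries of the mutants thus overlapped in asynchronous cells and were far apart in mitotic ones. The difference between states was -3.05 ± 0.61 (SE, adjusted p = 0.00569, edgeR), and it did not pass without S38D mitotic replicate 1 (adjusted p = 0.153, edgeR) or with DESeq2 (adjusted p = 0.381).

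The other two genes went the opposite way, with more footprints in S38D than in S38A in mitotic cells. ENSMUSG00000025203.5 had 1202 and 1035 CPM in S38D mitotic and 605 and 569.5 CPM in S38A mitotic libraries, beside 1118 and 1236 CPM in S38D asynchronous and 1255 and 1187 CPM in S38A asynchronous libraries. ENSMUSG00000091405.2 had 4579 and 4946 CPM in S38D mitotic and 2356 and 2538 CPM in S38A mitotic libraries, beside 2952 and 2574 CPM in S38D asynchronous and 2423 and 2627 CPM in S38A asynchronous libraries. In both genes the mutants overlapped in asynchronous and not in mitotic cells. Their differences between states were 0.98 ± 0.18 and 0.83 ± 0.16 (SE, adjusted p = 0.00318 for both, edgeR). The call was lost without S38D mitotic replicate 1 for ENSMUSG00000025203.5 (adjusted p = 0.0819, edgeR). For ENSMUSG00000091405.2 it was lost without S38D mitotic replicate 2 (adjusted p = 0.0930) or S38A mitotic replicate 1 (adjusted p = 0.0741, edgeR).

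**Figure D4:**
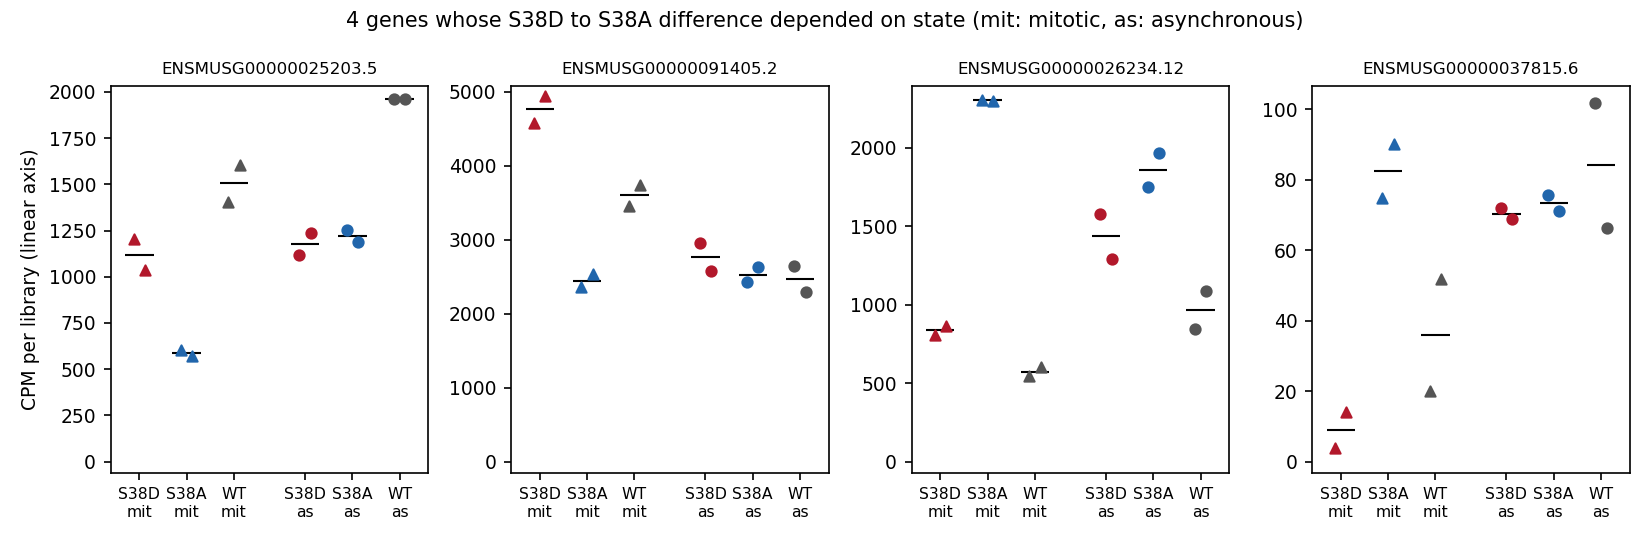
CPM of 4 genes in each of the 12 libraries (points, linear axes; triangles mitotic, circles asynchronous), with the mean of each group of 2 as a line. The S38D and S38A libraries are apart in mitotic cells in every panel; in asynchronous cells they overlap in all panels but that of ENSMUSG00000026234.12.

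Cell cycle genes were examined with marker gene pairs from the scran package, which lists Ensembl IDs. The lists made from them were not matched for level, and calls rose with level. Of genes from 100 to below 300 CPM 13.0% were called, and of those with at least 300 CPM 22.1%. The list for G2 and M phase had 67 members among the genes tested. S38D cells had 3 of them higher and 13 lower than S38A cells, 23.9% called beside 8.71% of all genes. Their median log2 difference was -0.17. Together they held 14138.2 and 14138.5 CPM in S38D, 15915 and 15621 CPM in S38A and 12533 and 12280 CPM in WT asynchronous libraries. The S38A libraries were the highest and the WT libraries the lowest, with no overlap. In mitotic cells the 67 genes held 10661 and 11485 CPM in S38D, 12172 and 12572 CPM in S38A and 10135 and 10404 CPM in WT cells, the same order. In each genotype both mitotic sums lay below both asynchronous ones. The list thus did not rise with the labelled state, and its sums are not read as shares of cells in G2 or M phase. Of the 13 lower genes, 9 were also lower in mitotic cells. The count of lower genes was 4 without S38A replicate 1, 7 without S38A replicate 2, 6 without S38D replicate 1, 8 without S38D replicate 2, 8 without a filter and 5 with DESeq2. Without S38D replicate 1 the median was -0.02.

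Of 74 S phase genes tested, 1 was higher and 8 were lower in S38D. That is 12.2% called, beside 8.71% of all genes and 13.0% of those from 100 to below 300 CPM. The S phase genes had a median of -0.16. Their sums were 15786 and 15598 CPM in S38D, 17827 and 17116 CPM in S38A and 14124.5 and 14818 CPM in WT asynchronous libraries. Without S38A replicate 1 or with DESeq2, 3 were lower, and 5 without S38D replicate 2. Of 81 G1 genes, 3 were higher and 6 lower (11.1% called, beside the same 8.71%), against 0 and 0 without S38A replicate 1. Their median of 0.06 turned to -0.08 without S38D replicate 2. In mitotic cells the S phase list had 2 genes higher and 18 lower in S38D (median -0.42), with 3 lower in both states. The G2 and M list had 3 higher and 11 lower there (median -0.21), and the G1 list 6 and 5 (median -0.04). Of all genes tested, 6.14% were higher and 6.77% lower in mitotic cells. ENSMUSG00000031004.8 is on none of the 3 lists, because the pairs place it as a marker of S as well as of G2 and M phase. Shares of cells in each phase were not measured in these files, and the part of cell cycle phase in the calls was not tested.

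The number of calls leaned on single libraries. Without S38A replicate 1 it was 163 (58 higher and 105 lower in S38D), without S38A replicate 2 it was 327, without S38D replicate 2 it was 400 and without S38D replicate 1 it was 465. In these fits 1 library stood alone in its group and was assumed to vary like the others. The genes called in all 4 fits and in the full one numbered 90, with 28 higher and 62 lower in S38D. All 4 asynchronous genes given by ID were among them, and 15 of the 28 and 48 of the 62 passed in the same direction in mitotic cells. DESeq2 gave an adjusted p to 340 of the 583 genes and called 152 genes (79 higher, 73 lower), all of which were among the 583 in the same direction. It gave none for ENSMUSG00000027562.12 or ENSMUSG00000006360.11. No setting called any of the 583 genes in the opposite direction.

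The excess of lower over higher genes was less firm than the calls. It was 227 lower and 163 higher with the 4 libraries alone in the fit and 239 lower and 153 higher with the 6 asynchronous libraries. It was absent with a filter at a mean of 10 CPM (271 lower, 271 higher), and also without S38D replicate 1 or S38D replicate 2. It turned round without a filter (233 lower, 269 higher) and with DESeq2.

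**Figure D5:**
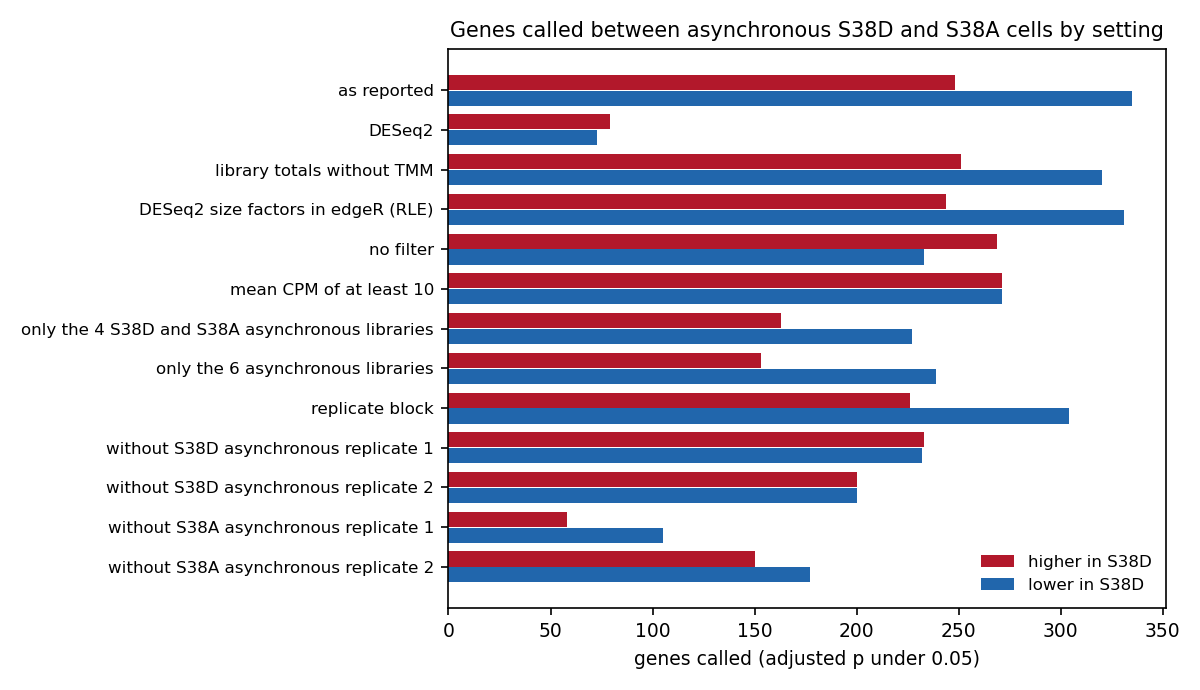
Genes called between asynchronous S38D and S38A cells (bars from 0) as reported and under 12 other settings, with genes higher in S38D in red and genes lower in S38D in blue. The fewest calls in either direction come with DESeq2 and without S38A replicate 1.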

How the data were processed

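Ribosome profiling libraries were analysed from the deposited read counts per gene ID, which the authors had not normalized. Per the labels' protocols, cells were harvested in cycloheximide at 100 µg/ml, and footprints of 27 to 30 nt were size-selected on a gel. The genome build was mm10, per the submitters' processing notes, which also list, with no role, the aligners STAR 2.5.3a and Bowtie2 2.3.2, the counter HTSeq 0.9.1, bcl2fastq 2.16.0.10 and DESeq2 1.18.1. The restriction to coding sequence is read from the names of the deposited tables alone. Not given in the sources used here: how strand and identical reads were handled. Counting intervals and the 3-read floor therefore leave out every other error, and genes that overlap or are near-identical copies may share reads.

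The 5 summary rows were left out of library sizes and tests. Reads in no counted feature made up 18.0 to 34.6% of uniquely placed reads over the 12 libraries, and ambiguous reads 0.524 to 0.677%. Counts were fitted in R 4.3.3 with edgeR 4.0.16 (TMM, filterByExpr with a minimum count of 10, quasi-likelihood F test) over 6 groups of genotype and state, leaving 6692 of 11680 genes with a read. The threshold was a Benjamini-Hochberg adjusted p of 0.05 over all tested genes. SE is the log2 difference over the square root of F. The scripts were tested on simulated data. DESeq2 1.42.0 was an alternative, and cell cycle pairs came from scran 1.30.0. Log2 CPM used a prior count of 2, and well-covered genes had a mean of at least 50 CPM.

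Genes, lists and tests were chosen with earlier results of these data known. The naming rule took genes with adjusted p under 0.05, a mean of at least 10 CPM and groups that did not overlap, by largest difference (12 each way) and smallest adjusted p (5 each way). Without gene names it was reduced, after the values were seen, to the first gene of each kind and direction, and for the interaction to the 2 smallest adjusted p each way. Lists by symbol, genes to be named by symbol, medians per chromosome and protein lengths could not be had, and scran lists were added instead. A list holds genes that came first more often than second in the pairs of 1 phase, with the opposite in the other two. No sequence is shown because the IDs match none of the reference tables.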

Additional observations from a re-analysis of the deposited data

Results flagged for a closer look

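The difference between S38D and S38A cells depended on state in 16 of 6692 genes (interaction in edgeR's quasi-likelihood test, adjusted p under 0.05), and these are given here because the 2 states gave unequal differences by a direct test. For the genes given by ID, the difference in mitotic cells minus that in asynchronous cells was 0.98 for ENSMUSG00000025203.5, 0.83 for ENSMUSG00000091405.2, -1.09 for ENSMUSG00000026234.12 and -3.05 for ENSMUSG00000037815.6 on the log2 scale. Nocodazole is in the title of every mitotic library, so state and drug cannot be told apart. With 2 libraries a group, no group was large enough to test for a library far from the others.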

How the results depend on the processing

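Between asynchronous S38D and S38A cells, 583 genes were called, 248 higher and 335 lower. DESeq2 called 152 (79 higher, 73 lower), of which 98.0% had the same direction in mitotic cells, against 90.6% as reported. Only the 4 libraries compared gave 163 higher genes and only the 6 asynchronous ones 153. Leaving out 1 of the 4 libraries gave 163 to 465 genes in all, 58 to 233 higher and 105 to 232 lower, with 90.3 to 95.1% in the same direction in mitotic cells, and in each case the gene set stayed that of the full fit. Library totals, DESeq2 size factors, both filters and the replicate block left the total within 1.5 times.

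The interaction gave 16 genes, 3 with DESeq2, 38 without a filter, and 4 to 32 when 1 of the 8 S38D and S38A libraries was left out. It could not be fitted to asynchronous libraries alone. Leaving out mitotic libraries and crossing the replicate numbers were added after the data were seen. Of the 8 genes given by ID, 3 interaction genes lost their call under a setting (5 losses in all), DESeq2 gave no adjusted p for 2 asynchronous ones, ENSMUSG00000027562.12 and ENSMUSG00000006360.11, and none reversed.

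The labels give each group replicates 1 and 2 without saying what a number shares. Deviations of same-numbered S38D and S38A asynchronous libraries correlated at -0.151 across 4259 genes, so the libraries were not treated as pairs, and what a number shares is unknown. With the replicate block 530 genes were called (226 higher, 304 lower) and 17 for the interaction. With the numbers crossed in S38A the block gave 530 (231 higher, 299 lower) and 12. Depth limits calls in genes under 30 CPM.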

Other observations

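Genes seen in only 1 mutant were few and shallow. In asynchronous cells, 38 gene IDs had 0 reads in S38A and more in S38D than the floor of 3 reads, scaled to depth, and 43 had 0 reads in S38D and more in S38A than that floor. The deepest had 16 reads in S38D and 11 in S38A. One of the 38 passed the filter on low counts and was called. Against the floor over the group this gene was 3.96-fold higher in S38D, and no counting interval was computed for it. The fitted value of 5.61 for it, the largest called difference on the log2 scale, depends on the prior count and is no bound.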
